A study of Catostomus macrocheilus with 21 samples.

Results

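Liver gene expression was compared between 7 wild largescale suckers (Catostomus macrocheilus) labelled Longview and 6 labelled Columbia City, both sites on the Columbia River. The 13 fish were chosen by the site in their sample titles, out of 21 fish in all. The other 8, from Skamania, are given beside them only as a further level. All fish were reproductive adults sampled from the river, and each array held the liver RNA of 1 fish. The labels give no sex, age, contaminant load or collection date, so each site stands for everything that differs between fish caught there. The labels do not say whether the fish of a site were caught together. The study asked how river contaminants relate to liver expression.

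The liver is the main organ in which a fish breaks down foreign chemicals, stores lipid and makes plasma proteins. In egg-laying fish it also makes the yolk precursor vitellogenin under the control of estrogen. Liver expression therefore differs with sex, season and reproductive state as well as with exposure. The probes carry names of sequences assembled from sucker transcripts, and the files used here pair none of them with a gene. Neither the liver identity of the samples nor any pathway could thus be checked by its genes. In bulk tissue, fewer cells of a type and less RNA per cell cannot be told apart.

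Signals were read as the log2 processed signal minus the 75th percentile of the array, so a level of 0 is that percentile of the probes on the array. A probe counts as bright if its spot was well above background on all 13 arrays. This was so for 7552 of 14758 probes, with a median signal of 404 units. A further 3485 probes were not bright but were well above background on at least 6 of the 21 arrays. These 11037 probes together were tested in a wider fit over all 21 arrays. Among these 3485 probes, 719 were well above background on 12 of the 13 arrays, just short of the bright criterion. Their median signal was 52.4 units and their median log2 difference between Longview and Columbia City was 0.06.

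Each slide held fish of all sites: 2 Longview and 1 Columbia City array on slide 1, 3 and 3 on slide 2, and 2 and 2 on slide 3. Longview arrays had 10596 ± 831 probes well above background (SD, n = 7), and Columbia City arrays had 9691 ± 715 (SD, n = 6). The difference did not pass (two-sided exact permutation p = 0.0606, adjusted 0.154 over 10 measures). The log2 75th percentile was 8.97 ± 0.48 at Longview and 8.58 ± 0.19 at Columbia City (exact permutation p = 0.0944, adjusted 0.189). Without Columbia City replicate 6 the adjusted values of these 2 exact permutation tests were 0.156 and 0.250. Columbia City replicate 6 stood apart from the other 5 fish of its site in dim probes, so each result is given with it and without it. It was set aside because of values in these same data, and p-values without it are to be read with that in view.

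No bright probe passed correction between Longview and Columbia City when the bright probes of these 13 fish were tested by themselves. Of the 7552 bright probes, 0 (0%) had an adjusted p under 0.05 by limma on the 13 arrays, and the smallest adjusted p was 0.499. Before adjustment 549 probes, or 7.27%, had a p under 0.05, with 316 (4.18%) higher and 233 (3.09%) lower at Longview. Without Columbia City replicate 6 the count of calls was again 0 (0%), with a smallest adjusted p of 0.515 and 615 probes (8.14%) at an unadjusted p under 0.05, of which 339 (4.49%) were higher and 276 (3.65%) lower. The ranges of the sites did not overlap for 18 bright probes higher at Longview (0.238%) and 8 lower (0.106%). Without replicate 6 these counts were 36 (0.477%) and 14 (0.185%). The wider fit described further on adds the Skamania arrays and the dim probes. Once replicate 6 was left out, it called 12 of the 7552 bright probes higher and 2 lower at Longview. Over all 11037 probes of that fit, 191 (1.73%) were called.

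The intervals show how large a difference these fish could still hide. The bright log2 differences had a median of -0.02 and ran from -0.67 at the 5th percentile to 0.65 at the 95th. The median standard error was 0.29 and the median half-width of a 95% interval was 0.63. The whole interval lay within 2-fold in either direction for 4506 bright probes, or 59.7%. It lay within 4-fold for 7171, or 95.0%. For the other bright probes the interval did not exclude a difference of 2-fold. Without replicate 6 the differences ran from -0.77 at the 5th percentile to 0.73 at the 95th. The interval then lay within 2-fold for 4059 probes, or 53.7%, and within 4-fold for 7098, or 94.0%.

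The bright probes with large site differences also varied more among fish of a site than bright probes in general. Choosing probes by a large difference of means favours a large spread, so this is in part given by the choice. A difference of at least 2-fold was found for 107 probes higher at Longview (1.42%) and 118 lower (1.56%), and none of these passed correction. The median SD among fish of these 107 was 1.19 at Longview and 1.00 at Columbia City. For the 118 it was 1.23 at Longview and 0.98 at Columbia City. Over all bright probes it was 0.55 at Longview and 0.48 at Columbia City. A difference of at least 4-fold was found for 6 probes higher (0.0794%) and 9 lower (0.119%).

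Site accounted for little of the variation among the 13 livers. Over the 7499 bright probes with a value on every array, the share of the sum of squares that lay between the sites was 9.54%, where 8.33% is the mean share with no site effect. Without replicate 6 the shares were 11.9% and 9.09%. Arrays of Longview fish correlated with Columbia City arrays by a median r of 0.923, against 0.918 among Longview fish and 0.919 among Columbia City fish, as a description across probes. The pairs between the sites ran from 0.822 to 0.957, those within Longview from 0.853 to 0.955 and those within Columbia City from 0.877 to 0.960. Livers of the same site were thus, in the median pair, about as unlike as livers of different sites.

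The first principal component of the bright probes held 29.7% of the variance and placed fish of both sites at both ends. Longview replicate 2 scored 72.4, above Columbia City replicates 6 and 1 at 45.2 and 31.9. At the low end Longview replicate 6 scored -33.3, beside Columbia City replicates 3 and 5 at -45.0 and -34.2. Longview scores averaged 5.96 ± 32.9 (SD, n = 7) and Columbia City scores -6.95 ± 36.8 (SD, n = 6), which did not pass (exact permutation p = 0.524, adjusted 0.661). The second component, with 15.9%, had a mean of 11.8 ± 26.9 at Longview and -13.8 ± 13.3 at Columbia City (exact permutation p = 0.0618, adjusted 0.154). The third component, with 9.37%, did not pass either (exact permutation p = 0.537, adjusted 0.661). The components were drawn from all 13 fish. With only the scores of replicate 6 left out, the adjusted p-values of these exact permutation tests were 0.410, 0.230 and 0.557.

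**Figure D1:**
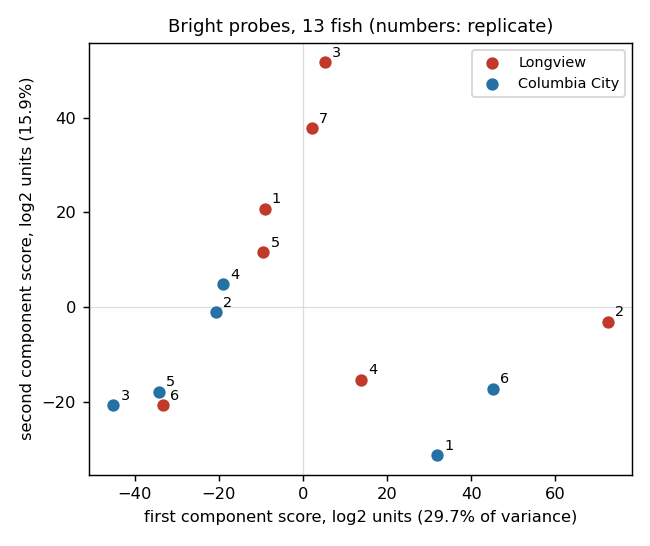
Scores of the 7 Longview (red) and 6 Columbia City (blue) livers on the first 2 principal components of 7499 bright probes, in log2 units, with replicate numbers beside the points. Fish of both sites lie at both ends of the first axis, where Longview replicate 2 scored 72.4 and Columbia City replicate 3 scored -45.0.

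Longview replicates 2 and 6 stood out in the bright probes. By Dixon's criterion for a gap from the other fish of the site, which marks about 5% of probes by chance, 624 of 7523 bright probes (8.29%) had such a fish at Longview and 420 of 7526 (5.58%) at Columbia City. Longview replicates 2 and 6 each accounted for 223 of the 624, against 14 to 48 in the other 5 Longview fish. The share at Columbia City was close to the 5% given by chance. There, replicate 6 accounted for 90 of the 420, close to replicate 3 with 91 and replicate 1 with 90. The spread among fish was larger at Longview for 60.6% of bright probes, and for 64.0% without replicate 6. Among the tested probes that were not bright it was larger at Longview for only 38.2%, and for 44.6% without replicate 6. For each fish, the root mean square deviation of bright probes from the mean of its site fellows was scaled for their number. It was 0.722 ± 0.139 at Longview and 0.685 ± 0.0877 at Columbia City, and this difference did not pass (exact permutation p = 0.595, adjusted 0.661). The adjusted p of this permutation test was 0.513 with the value of replicate 6 dropped, though that fish stayed among the fellows of the others.

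The 4 bright probes below had the smallest p-values of this fit in each direction and show the values of single fish behind them. They were chosen for those p-values and not for size, since other bright probes differed by more, and none passed correction (limma adjusted p = 0.499 for each, and 0.515 without replicate 6). All 4 were also well above background on the 8 Skamania arrays.

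LSS_UF_11629 is an abundant transcript, with a mean signal of 11503 units. Its level was 6.06, 5.36, 5.97, 5.06, 5.27, 4.68 and 5.32 in Longview replicates 1 to 7, and 3.37, 4.55, 3.64, 4.80, 2.99 and 4.04 in Columbia City replicates 1 to 6. The ranges overlapped through 1 fish of each site, Longview replicate 6 and Columbia City replicate 4. Longview minus Columbia City came to 1.49 on the log2 scale, SE 0.32 (95% interval 0.82 to 2.17), or 2.82-fold. Without Columbia City replicate 6 it was 1.52 with an SE of 0.34. At Skamania its level ran from 3.08 to 5.51 with a median of 4.09, and 5 of the 8 fish lay below every Longview fish.

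LSS_UF_16655 had a mean signal of 984 units. Its level was 2.32, 2.36, 1.65, 1.15, 1.57, 1.13 and 1.40 in Longview replicates 1 to 7, and 0.48, 1.13, 0.49, 0.40, 0.69 and 0.21 in Columbia City replicates 1 to 6. The Longview values were led by replicates 1 and 2, and at Columbia City only replicate 2 reached the Longview range. The site means differed by 1.09 on the log2 scale, SE 0.25 (95% interval 0.55 to 1.62), and 1.02 with an SE of 0.27 without replicate 6. Skamania fish ran from 0.26 to 1.80 with a median of 0.98, and this median lay between the Longview mean of 1.65 ± 0.51 (SD, n = 7) and the Columbia City mean of 0.57 ± 0.32 (SD, n = 6).

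LSS_UF_14074, with a mean signal of 179 units, was lower at Longview. Its level was -1.54, -2.18, -2.25, -1.44, -1.54, -1.26 and -2.27 in Longview replicates 1 to 7, and -0.90, -0.55, -0.46, -1.10, -0.78 and -0.68 in Columbia City replicates 1 to 6. Every Longview fish lay below every Columbia City fish. Its log2 difference came to -1.04, SE 0.22 (95% interval -1.51 to -0.57), and -1.03 with an SE of 0.24 without replicate 6. Skamania fish ran from -2.49 to -0.44 with a median of -1.77, which spans both other sites.

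LSS_UF_11747, with a mean signal of 11163 units, was also lower at Longview. Its level was 4.43, 5.18, 2.70, 3.82, 4.09, 3.03 and 3.85 in Longview replicates 1 to 7, and 5.65, 5.89, 4.70, 5.80, 6.30 and 5.09 in Columbia City replicates 1 to 6. Longview replicate 2 alone lay within the Columbia City range. Its log2 difference came to -1.70, SE 0.38 (95% interval -2.51 to -0.89), and -1.80 with an SE of 0.40 without replicate 6. By its name the sequence belongs to an assembly group with 3 other probes. Of these, 2 were bright, and both were lower at Longview, by log2 differences of -1.59 and -0.70. Probes of a group may share sequence and are not separate evidence. Skamania fish ran from -0.43 to 6.11 with a median of 4.83.

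**Figure D2:**
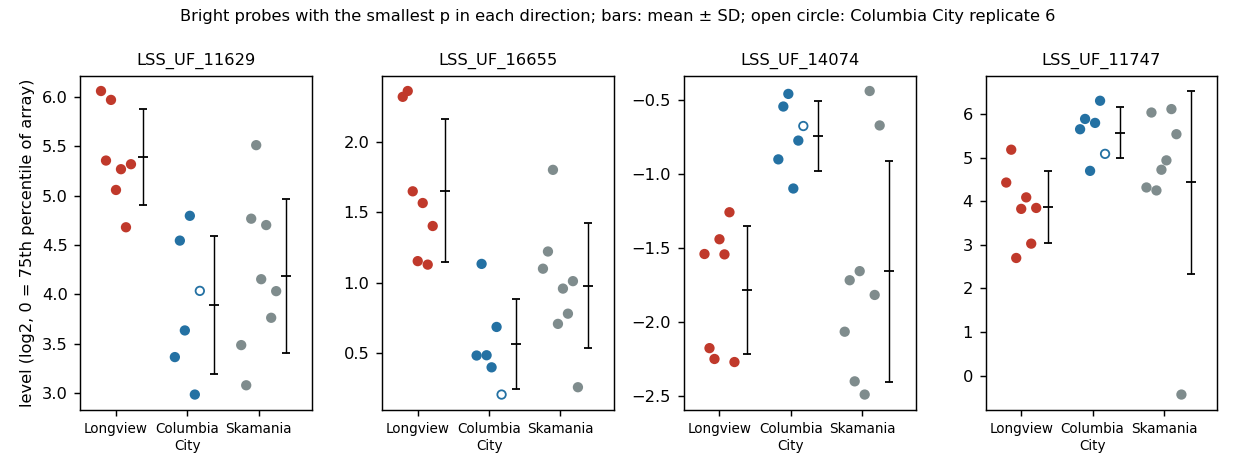
Level of the 4 named bright probes in each fish, as log2 signal with 0 at the 75th percentile of the array, for Longview (red), Columbia City (blue, with replicate 6 as an open circle) and Skamania (grey); bars give the mean ± SD. The Longview and Columbia City ranges are apart only for LSS_UF_14074, and the Skamania fish cover much of both.

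Probes printed 10 times on each array separate spot noise from differences between fish. Of 50 such probes 29 were bright, and the median SD among spots of 1 array was 0.0792. The median SD among fish was 0.66 at Longview and 0.67 at Columbia City, so the fish and their arrays, more than the spots, limited the precision for these 29. Their log2 differences ran from -0.57 to 1.32, with 20 higher and 9 lower at Longview. The median was 0.21, below their median SE of 0.34, and it was -0.02 over all bright probes. No direction is read from so few probes. For 1 of the 29 the unadjusted limma p was under 0.05, against 7.27% of all bright probes.

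Dim probes gave another picture, which turned on 1 fish. In the fit over 11037 probes and all 21 arrays, 0 (0%) were called between Longview and Columbia City by limma, and before adjustment 1092 (9.89%) had a p under 0.05. Of those, 768 (6.96%) were higher and 324 (2.94%) lower at Longview. Without Columbia City replicate 6, 191 probes (1.73%) were called by limma, of which 188 (1.70%) rose and 3 (0.0272%) fell at Longview. Before adjustment 967 (8.76%) then had a p under 0.05 and were higher, and 382 (3.46%) lower. The 188 had a median signal of 18.0 units, 158 of them lay at or below 32 units, and 12 were bright. Of the 3 that fell, 2 were bright.

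The median difference was highest in the dimmest classes. Among the 535 tested probes at or below 16 units the median log2 difference was 0.33, and 0.43 without replicate 6, when 71 (13.3%) were called. Among the 1549 probes between 16 and 32 units it was 0.19, and 0.24 without replicate 6, with 88 (5.68%) called. It was 0.02 among the 1553 probes between 32 and 64 units and -0.04 among the 2716 between 64 and 256 units. In brighter probes it was -0.001 among the 2457 between 256 and 1024 units and 0.07 among the 1762 between 1024 and 8192 units. A dim probe can pass the filter through signals at 1 site alone, which bears on the dim classes and not on the bright ones. After quantile normalization the median of the lowest class was 0.16, and 0.14 without replicate 6, and that of the class between 16 and 32 units was 0.03, and -0.008 without replicate 6. With all fish, the medians of these 2 classes were 0.38 and 0.23 with median centring. With no scaling they were 0.72 and 0.57, where the median of all bright probes was 0.37. With normexp background correction they were 0.15 and 0.13. The size of the median difference in these classes thus depended on the processing, and it was smaller with quantile normalization and normexp.

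The 465 most abundant transcripts, above 8192 units, had a median log2 difference of -0.20, and -0.28 without replicate 6. Of these 49, or 10.5%, had a p under 0.05 before adjustment, with 21 higher and 28 lower. With normexp background correction this median was -0.27, with quantile normalization it was -0.01 and with no scaling 0.17. The direction of this class thus depends on the scaling. Without scaling the median of all bright probes moved to 0.37, since the Longview arrays were brighter, and relative to it the most abundant class lay lower under each of these settings except quantile normalization, where the medians were -0.01 for both.

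**Figure D3:**
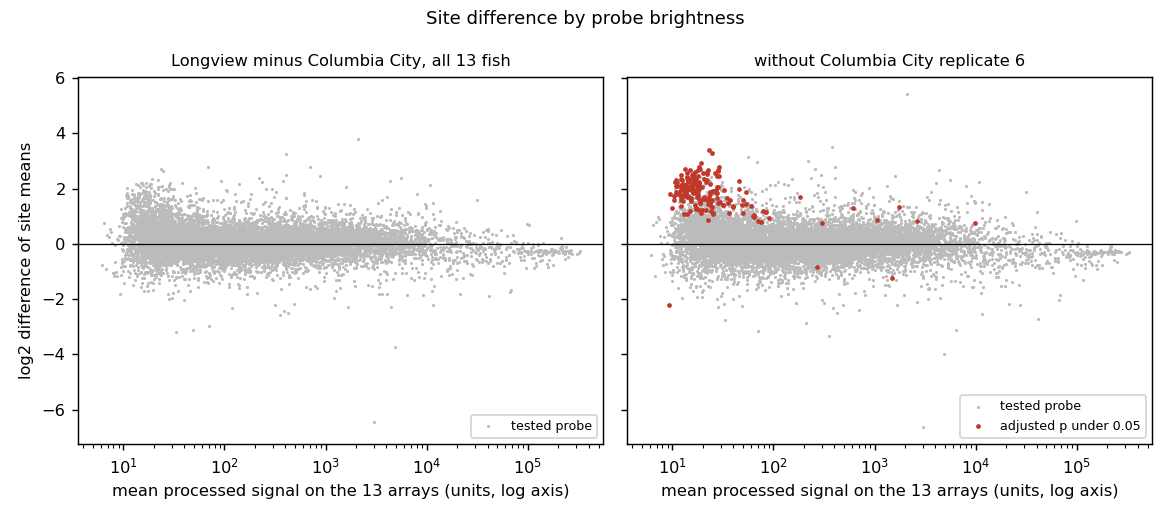
Log2 difference of Longview minus Columbia City for 11037 tested probes against their mean processed signal on a log axis, with all 13 fish (left) and without Columbia City replicate 6 (right); red points have a limma adjusted p under 0.05. No probe is red with all fish, and 158 of the 188 higher probes without that fish lie at or below 32 units.

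Most of the 188 probes have no measured level in the 5 Columbia City fish. Of the 188, 135 were well above background in none of these 5, so their fitted differences are not exact sizes, and many passed the filter through the fish in which they were high. For 112 of the 135 the Longview mean was at least 1.00-fold to at least 4.13-fold above the background level of the 5 fish, with a median of at least 1.42-fold, and for the other 23 no fold can be given. Such a bound sets the Longview mean against, per array, the higher of the probe's own signal and the lowest signal that was well above background, and it holds for this processing only. The 53 probes detected in at least 1 of the 5 fish differed by 0.75 to 2.64 on the log2 scale, with a median of 1.40. The Longview range lay above all 5 Columbia City fish for 151 of the 188 and above all 6 for 3. Over all tested probes the ranges did not overlap for 240 higher (2.17%) and 19 lower (0.172%) without replicate 6, and for 24 (0.217%) and 11 (0.0997%) with it.

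Columbia City replicate 6 lay with the Longview fish in the 188. It was not in the fit that called them, but it counted toward the filter on dim probes, and it was set aside because its dim probes were known to stand apart. Its place is therefore a description of what led to leaving it out. The mean level of the 188 was -3.44, -3.18, -3.74, -3.76, -4.00, -3.19 and -3.88 in Longview replicates 1 to 7. It was -5.34, -5.50, -5.63, -5.49 and -5.34 in Columbia City replicates 1 to 5, and -3.02 in replicate 6. The 188 were chosen as higher at Longview than in the first 5 fish, so the gap between those groups restates the choice. Every Longview fish lay far above these 5, and replicate 6 lay above every Longview fish. It exceeded each of the other 5 Columbia City fish in 183 of the 188 probes and the Longview mean in 170. The 8 Skamania fish ran from -5.81 to -4.92. These means include signals that were not well above background.

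The 12 bright members of the 188, chosen in the same way, showed less of this. Their mean level ran from -0.20 to 0.44 in the Longview fish and from -1.17 to -0.79 in Columbia City replicates 1 to 5, and was -0.38 in replicate 6. Replicate 6 thus lay between both groups, and it exceeded all other Columbia City fish in 7 of the 12. The Skamania fish ran from -0.81 to -0.25, and the median difference of the 12 between Longview and Skamania was 0.52.

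Detection is described for the same probes, which were chosen as higher at Longview than in Columbia City replicates 1 to 5. Longview fish had 92 to 188 of the 188 well above background, with 92 in replicate 4 and at least 156 in the other 6. Of the Columbia City fish, replicates 1 to 5 had 15 to 37, and replicate 6 had 186. Skamania fish had 20 to 65. Over all 14758 probes, 0 (0%) were well above background in every Longview fish and in no Columbia City fish. Leaving replicate 6 aside there were 51 such probes (0.346%), each of which must then be well above background in that fish. The reverse pattern had 0 probes (0%) with and without that fish. For these 51 a Longview mean above the level of background in the 5 fish is largely given by the choice. It was at least 1.21-fold to at least 4.13-fold above that level, with a median of at least 1.82-fold. When another Columbia City fish was left aside in place of replicate 6, 0 or 1 probe had this pattern. With replicate 6 aside, leaving out Longview replicate 4 as well raised the 51 to 123, and leaving out any other Longview fish gave 51 to 60.

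Each Columbia City fish was placed in turn between the mean of its 5 site fellows, at 0, and the Longview mean, at 1, over probes with an unadjusted p under 0.05 in a fit without it. For bright probes this was the fit of the Longview and Columbia City arrays alone, and for the others the wider fit with Skamania. The probes were chosen for a gap between the fellows and Longview, so a position above 0 can arise with no site effect. For the tested probes that were not bright, replicate 6 had a median position of 1.29 over 650 probes, and the other 5 fish had medians from -0.06 to 0.07. For bright probes replicate 6 was at 0.73 over 615 probes, replicate 1 at 0.64, and the other 4 from 0.12 to 0.45. The dim position of replicate 6 restates the reason for which it is treated apart. In the bright probes replicate 1 lay close to it. The bright correlations likewise did not place replicate 6 with either site: its median r was 0.907 with the Longview fish and 0.902 with the other Columbia City fish. For the other 5 fish the fellows include replicate 6, which draws the mean of dim probes toward Longview. Longview fish were placed the same way, between their own fellows at 0 and the Columbia City mean at 1. Their bright medians ran from -0.31 in Longview replicate 3 to 1.06 in Longview replicate 6, so a high bright position was not particular to Columbia City replicate 6.

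**Figure D4:**
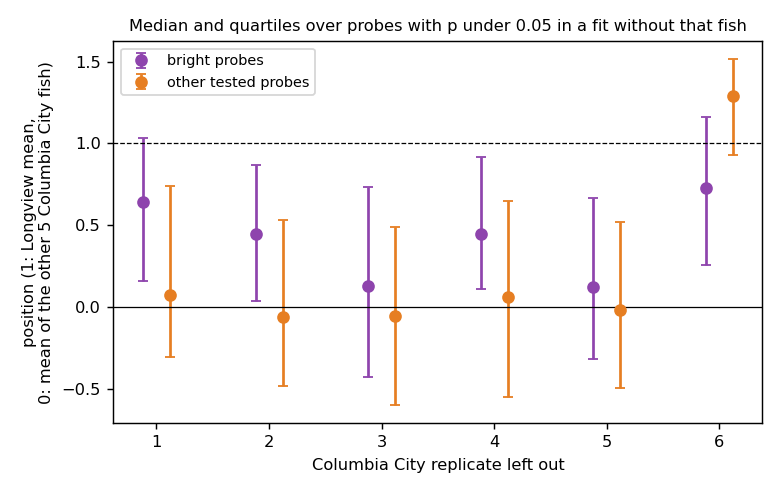
Median position of each Columbia City fish between the mean of the other 5 (0) and the Longview mean (1, dashed), with quartiles over probes at an unadjusted p under 0.05 in a fit without that fish, for bright (purple) and other tested (orange) probes. Replicate 6 is at 1.29 in the probes that are not bright, where the other 5 fish lie between -0.06 and 0.07.

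The control probes examined, which stand for no sucker transcript, were ETG10_234183, E1A_r60_a104 and a negative control. ETG10_234183 and E1A_r60_a104 moved with the dim probes. Other probes among the 536 control spots of an array were not examined here, so the share that moved this way is not known. The adjustment over 10 measures does not cover the choice of these probes. Control signals are given as log2 processed signal, without subtracting the 75th percentile of the array. That log2 percentile averaged 8.97 at Longview and 8.58 at Columbia City. The log2 signal of the control probe ETG10_234183 was 3.48, 3.74, 4.08, 2.77, 3.24, 3.29 and 3.83 in Longview replicates 1 to 7. It was 2.25, 1.93, 1.81, 2.28 and 2.69 in Columbia City replicates 1 to 5 and 4.01 in replicate 6. Every Longview fish and replicate 6 lay above the first 5 Columbia City fish. The difference was 1.00 with all fish (exact permutation p = 0.0204, adjusted 0.102 over 10 measures) and 1.30 without replicate 6 (exact permutation p = 0.00126, adjusted 0.00631). An exact p of 0.00126 is the smallest that 7 against 5 fish allow.

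Without scaling, the dim spike-in probe E1A_r60_a104 divided the fish in the same way. Longview replicate 7 was at 4.89 with a log2 75th percentile of 9.56, and Columbia City replicate 1 at 4.39 with 8.38. Relative to the percentile of its array, that Longview fish thus lay below that Columbia City fish. It also lay below Columbia City replicates 2, 3 and 5, at 3.86, 3.87 and 4.10 with percentiles of 8.47, 8.52 and 8.60. On this scale Longview replicates 3 and 5 lay below Columbia City replicate 1. Longview replicates 1, 2, 4 and 6 lay above Columbia City replicates 1 to 5. For E1A_r60_a104 the ranges thus overlapped relative to the percentile, and the clean division held only without scaling. Without replicate 6 the log2 percentile was 0.39 higher at Longview on average. The unscaled differences were larger, at 1.30 for ETG10_234183 and 1.13 for E1A_r60_a104. Relative to the percentile, both site means thus stayed higher at Longview without replicate 6. Scaled control signals were not tested. Longview fish averaged 5.14 ± 0.26 (SD, n = 7), Columbia City replicates 1 to 5 averaged 4.01 ± 0.24 (SD, n = 5), and replicate 6 was at 5.34. The difference was 0.91 with all fish (exact permutation p = 0.00699, adjusted 0.0699) and 1.13 without replicate 6 (exact permutation p = 0.00126, adjusted 0.00631). The negative control probe, at 2.02 ± 0.22 in the Longview and 2.06 ± 0.38 in the Columbia City fish, did not pass (exact permutation p = 0.857). The part of the control signal in the result on the 188 probes was not tested here. With normexp on the raw median signals (offset 50), a correction that compresses dim values, 0 probes were called without replicate 6 by limma. Before adjustment 631 had a p under 0.05, and the 188 then had a median fitted difference of 0.45 (median SE 0.29). It was 1.88 (median SE 0.33) in the fit without normexp and 1.68 (median SE 0.32) after quantile normalization. With quantile normalization 146 probes were called by limma without replicate 6.

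**Figure D5:**
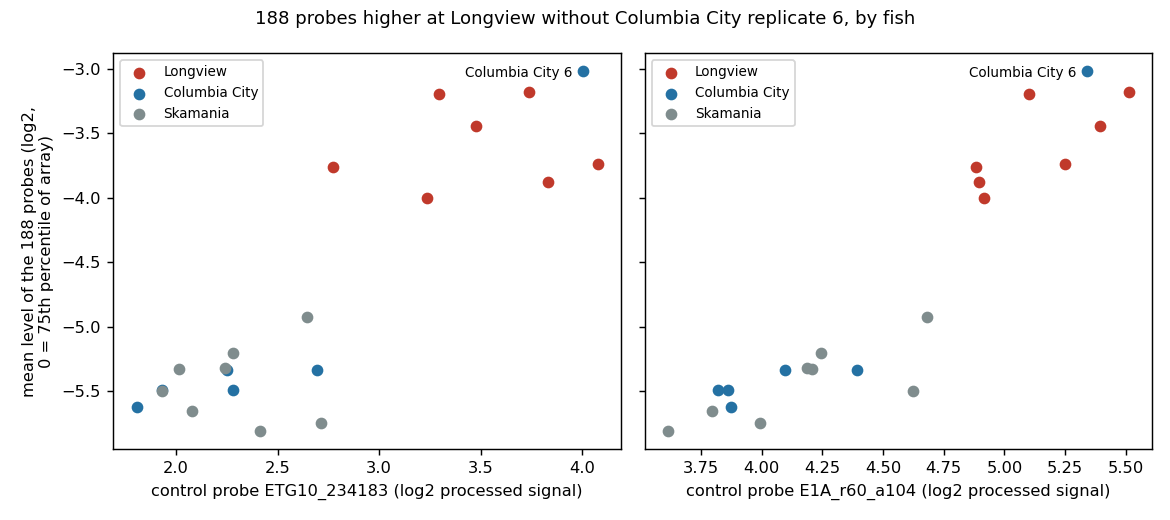
Mean level of the 188 probes in each fish (log2, 0 at the 75th percentile of the array) against the unscaled log2 signal of the control probes ETG10_234183 (left) and E1A_r60_a104 (right), for Longview (red), Columbia City (blue) and Skamania (grey). Columbia City replicate 6, at -3.02, lies with the Longview fish on both axes, and the other 5 Columbia City fish lie with the Skamania fish.

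The names of the 188 were set beside those of probes as dim, with no test. Names of assembled contigs made up 70.7% of the 188 and 88.6% of all tested probes. At or below 32 units they made up 69.6% of the called higher probes and 76.2% of all tested ones. The letters rc, whose meaning the sources used here do not give, stood in 42.0% of the names of the 188 and in 25.7% of all tested. At or below 32 units they stood in 44.3% of the called higher probes and in 35.7% of all tested ones.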

How the data were processed

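Liver RNA of 21 fish was hybridised to 1-colour Agilent arrays, 1 fish per array. Linear intensity values of every spot are in the scanner output that the authors deposited. Feature Extraction was version 9.1 per the submitters' processing notes and 10.1.1.1 per the file headers. The authors also deposited processed log2 values, whose columns share 1 distribution. These served as an alternative. Log2 processed signals of 15208 non-control spots were taken, spots of the same probe were averaged without the 555 of 319368 spot values flagged as outliers, and the 75th percentile of each array was subtracted. No non-control spot was saturated. For 53 bright probes a flagged spot left at least 1 array without a value, and the fit drops that array for that probe. A probe printed 10 times counted as well above background if at least 50% of its spots were.

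The test between sites was limma's (version 3.58.1, R 4.3.3), two-sided, with Benjamini-Hochberg adjustment over all probes of a fit and a threshold of 0.05. The bright probes were fitted on 13 arrays, and the 11037 tested probes on 21, where the 3 sites share 1 estimate of the spread. Array measures were compared with two-sided exact permutation tests over fish (Python 3.11.15, numpy 2.4.6), adjusted over 10 measures. The 95% intervals used t quantiles from scipy 1.17.1. The fits were tested on simulated data. The labels name replicates and not separate collections, so p-values measure the spread between these fish and their arrays. The number of arrays limits the precision.

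The fish, probes, filters and the fish left out were chosen with earlier results of these data known. Bright probes were named by the 2 smallest p-values in each direction in the 13-array fit. Gene lists and cell type markers that had been drawn up were not used, since the files pair no probe with a gene. Alternatives covered scaling, background correction, filters, slide, which is also the scan, replicate number, array weights, the arrays in the fit and leaving out each fish.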

Additional observations from a re-analysis of the deposited data

Results flagged for a closer look

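Among 40 groups of per-fish values, 3 held a fish far from the others of its site by Dixon's criterion, and chance gives about 1 in 20. The control probe E1A_r60_a104 was at an unscaled 5.34 in Columbia City replicate 6, against 3.82 to 4.39 in the other 5, which is just past the criterion. The mean level of the 188 probes was -3.02 in that fish, against -5.63 to -5.34 in the other 5. The 188 were chosen as low in those 5, and that fish was set aside for its dim probes, so this gap restates the choice. LSS_UF_11747 was at -0.43 in Skamania replicate 8, against 4.25 to 6.11 in the other 7 Skamania fish. That fish lies outside the comparison of Longview with Columbia City.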

How the results depend on the processing

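In the fit of bright probes alone, 0 were called by limma under every setting run of that fit, leaving out each fish included, and 1090 had an unadjusted p under 0.05 with no scaling. Their median log2 difference was 0.0254 with median centring, 0.0233 with normexp, 0.365 with no scaling, -0.0540 within slide 1 and 0.0106 within slide 2. It ran from -0.0314 to -0.00564 when each fish was left out. Over all tested probes, 104 were called with no scaling, 79 with array weights and 2 within slide 1. Leaving out each fish gave 0 to 191, with 191 without Columbia City replicate 6 and 1 without Longview replicate 6. Without Columbia City replicate 6, where all alternatives were chosen after seeing the data, the 191 calls became 0 with normexp, 2 within slide 1, 0 within slide 2 and 0 within slide 3, where fewer arrays are left (631, 838, 694 and 819 at an unadjusted p under 0.05). A lone array of a site within a slide is assumed to vary like the others. Still without Columbia City replicate 6, 146 probes were called with quantile normalization and 150 with the authors' log2 values. Median centring gave 211 and no scaling 258. Leaving out 1 further fish gave 145 to 217. Why the counts changed was not tested. Without Columbia City replicate 6 the unscaled differences of the control probes ETG10_234183 and E1A_r60_a104 passed correction, at 1.30 and 1.13. With all fish they did not (exact permutation, adjusted p = 0.102 and 0.0699). That fish was set aside for its dim signals and lay with Longview in both of these dim probes. Their pass without it thus follows in part from leaving it out. Leaving out each fish, the 2 differences ran from 0.86 to 1.30 and from 0.82 to 1.13. The 4 named probes kept their direction and were not called in any of 29 settings.

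With the replicate number as a block, 0 bright probes were called (326 at an unadjusted p under 0.05), and 0 of all tested probes; without Columbia City replicate 6 the block gave 184. The labels tie no number to a shared batch, and the deviations of same-numbered fish correlated between -0.38 and 0.26 over the 6 numbers. No pairing by number was thus apparent, although so few values cannot exclude a weak one.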
